A study of Mus musculus with 2 samples.

Results

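The genes described here are 40 mouse genes of protein folding and its stress responses, namely chaperones and folding enzymes of the endoplasmic reticulum (ER), genes of ER-associated degradation (ERAD), the sensors and transcription factors of the unfolded protein response (UPR), genes of the ATF4 branch, cytosolic heat shock genes and the mitochondrial chaperonin. They were taken by symbol from a list of members chosen with earlier results of these data known, by a rule that uses no measured value, and make up 40 of 20660 genes that could be named on the array. They were compared in pre CFU-E, an erythroid-committed progenitor, sorted from the bone marrow of WT C57BL/6 mice and of ESAM-KO mice on the same background. ESAM is an endothelial cell-selective adhesion molecule that also marks hematopoietic stem cells. The ESAM-KO line carries a knockout of the whole animal and not of a single cell type. All mice of both groups had received a single dose of 120 mg/kg of 5-FU, a myelo-suppressive drug, and were killed at day 8. No untreated mice were in the series, so every comparison is between genotypes under recovery from 5-FU. The sorted cells were Lin- FcgR-/Lo CD41Lo c-Kit+ Sca1- endoglin+ CD150+. For each genotype, marrow of 3 mice was pooled before sorting, and the amplified RNA was hybridised to 1 one-colour Agilent array.

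In eukaryotic cells, secreted and membrane proteins fold in the ER with the help of chaperones such as BiP (Hspa5) and of disulfide isomerases, and chains that fail to fold are sent to the cytosol for degradation. When unfolded chains build up, the sensors IRE1 (Ern1), ATF6 and PERK (Eif2ak3) start the UPR: IRE1 splices Xbp1 mRNA, ATF6 is cut to release a transcription factor, and PERK phosphorylates eIF2 alpha, which lowers general translation and favours translation of ATF4. The cytosol answers heat and misfolding through HSF1 and the Hsp70, Hsp90 and Hsp110 chaperones. Erythroid cells are known to use the eIF2 alpha and ATF4 route as well, through the heme-regulated kinase Eif2ak1, and to use Hsp70 during maturation. The main controls of Xbp1, Atf6 and Hsf1 act on splicing, cleavage and protein state, which were not measured on these arrays.

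The ER stress response element (ERSE) is the sequence through which ATF6 and XBP1 act on many ER chaperone genes, so its copies in the members' promoters are shown first. The pattern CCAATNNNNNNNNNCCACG was searched on both strands of RefSeq promoters (GRCm38.p6, 250 bases before to 50 after the start of transcription), in which 33 of the 40 genes had an entry. It was found in 8 of these 33 genes (24.2%), against 37 of 27025 genes in the table (0.137%) and 0.119% of its 32851 promoters. The members were listed as ER chaperone and UPR genes, so a share above that of all genes was built into the list. Of the 8 genes, 7 belong to the group of ER folding genes, called ER lumen genes here although Canx encodes a membrane protein. The other is Syvn1, the ubiquitin ligase of ERAD. The sites are given 5′ to 3′ in the direction of the element, with the fixed letters in capitals.
Hspa5: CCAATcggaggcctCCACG
Calr: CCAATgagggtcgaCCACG
Hsp90b1, far copy: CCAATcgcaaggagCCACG
Hsp90b1, near copy: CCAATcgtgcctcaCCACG
Canx: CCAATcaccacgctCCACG
Pdia6: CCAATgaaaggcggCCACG
Dnajc3: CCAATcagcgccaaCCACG
Creld2: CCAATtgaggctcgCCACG
Syvn1: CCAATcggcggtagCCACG

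The Hspa5 site lies at chr2:34772025-34772043, from 65 to 47 bases before the start. The Calr site is at chr8:84847075-84847093, those of Hsp90b1 at chr10:86705638-86705656 and chr10:86705533-86705551, that of Canx at chr11:50325800-50325818 and that of Pdia6 at chr12:17266491-17266509. The Dnajc3 site is at chr14:118937827-118937845, that of Creld2 at chr15:88819520-88819538 and that of Syvn1 at chr19:6046532-6046550. In Calr, in Creld2 and in the near copy of Hsp90b1 the element reads on the strand opposite to the gene. All 9 sites are upstream of the start. The outer blocks of the element are common by themselves, with CCAAT in 41.1% and CCACG in 35.5% of all genes in the table, and in 26 and 25 of the 33 members. A match of letters in these windows is a description and not evidence of binding.

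The stretch of 150 bases before the start of Hspa5 (chr2:34771940-34772089, plus strand) is printed because it holds the element with a further CCAAT box upstream, and that of 100 bases before Syvn1 (chr19:6046476-6046575, plus strand) because its site is the only one outside the ER lumen genes. Here capitals mark CCAAT and CCACG in Hspa5 and the fixed letters of the ERSE in Syvn1.
Hspa5: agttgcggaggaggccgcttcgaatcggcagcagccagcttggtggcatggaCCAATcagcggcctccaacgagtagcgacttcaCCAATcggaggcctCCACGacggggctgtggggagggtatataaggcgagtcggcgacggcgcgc
Syvn1: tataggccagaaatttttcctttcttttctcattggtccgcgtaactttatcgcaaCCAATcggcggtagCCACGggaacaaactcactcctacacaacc

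Of the 40 genes, 39 had at least 1 named probe, with 48 probes in all, and 36 were well above background on both arrays. Atf6 and Eif2ak3 passed the background filter in ESAM-KO alone, so that only a lower bound of their ratio could be given. Hspb1, a small heat shock protein, did not pass the background filter on any array, with intensities of 2.65 and 4.34 in WT and ESAM-KO, and Hspa1b had no named probe. The processed intensity of each array was divided by its 75th percentile, which was 201.4 in WT and 251.1 in ESAM-KO, and values are given below as log2 ratios after this scaling, with ESAM-KO divided by WT. Unscaled intensities are quoted beside them, and an unscaled pair at equal scaled level therefore differs by 0.32 on the log2 scale. With 1 array per genotype the differences have no replicate check and no p-value can be given. The only error is that of the scanner software within an array, which propagates to about 0.20 for most members. It was almost the same for all bright members, with a lowest value of 0.2040 and a median of 0.2041. It is therefore close to a constant and not a spread measured for each gene, and serves below only as a fixed mark.

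**Figure D1:**
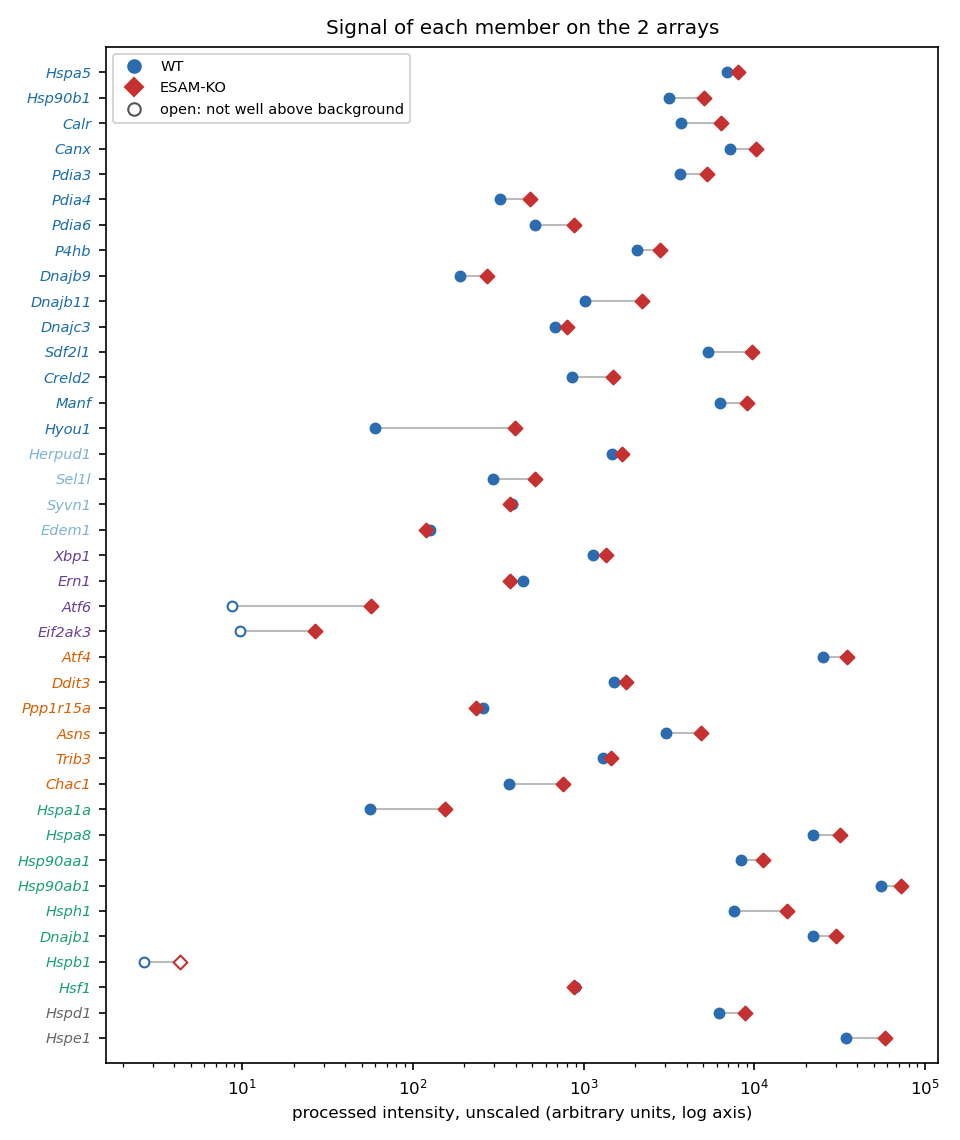
Unscaled processed intensity (log axis, arbitrary units) of the 39 members with a probe on the WT array (circles) and the ESAM-KO array (diamonds), 1 array each, joined by a line; open symbols were not well above background, and label colours mark the member groups. Positions along the axis depend on the probe and are not comparable between genes. Hyou1 has the widest gap among genes measured on both arrays, from 60.3 to 394.3, while most pairs lie close together.

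Of the 38 members with a ratio or a bound, 3 were more than 2-fold higher in ESAM-KO and 0 were more than 2-fold lower, at the 2-fold criterion of the study's methods. Over all 14136 named genes with a ratio or a bound, 15.4% passed 2-fold, and of the same 14136, 6.99% were higher (988 genes) and 8.43% lower (1191 genes). The members' share of 7.89% higher was thus near the background of the array. The split of all genes depended on the scaling: 1804 were higher and 729 lower without scaling, 751 and 1513 with each array scaled to its median, and 236 and 486 with normexp background correction. The members moved with it, from 3 higher to 7, 2 and 1, while 0 were lower under each of these settings.

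The 3 members past 2-fold were Hyou1, Hspa1a and, only through a bound from a filter passed in ESAM-KO alone, Atf6. Below this level, the members as a whole were shifted by a small amount, with a median log2 ratio of 0.20 over the 36 genes on both arrays, against -0.02 over 12615 genes. The interquartile range of all genes ran from -0.38 to 0.34. Above 0 lay 25 of the 36 members and 6117 of the 12615 genes. The scaled difference exceeded the scanner error upwards in 18 members and downwards in 5, and was within it in 13. These counts were not made over all genes, whose interquartile range is wider than that error, so they have no background to be read against. The shift was read against a measurement in which dim probes spread more than bright ones. Genes were split by mean signal into 4 sets of equal size. In the set with the highest signal, which held 23 of the 36 members, 2.63% of all genes passed 2-fold, and the median of the members was 0.19 against 0.02 for all genes of that set. Its interquartile range, from -0.25 to 0.28, included that median. Both members past 2-fold on both arrays, Hyou1 and Hspa1a, were in the next-to-lowest set, where 19.1% of all genes passed.

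**Figure D2:**
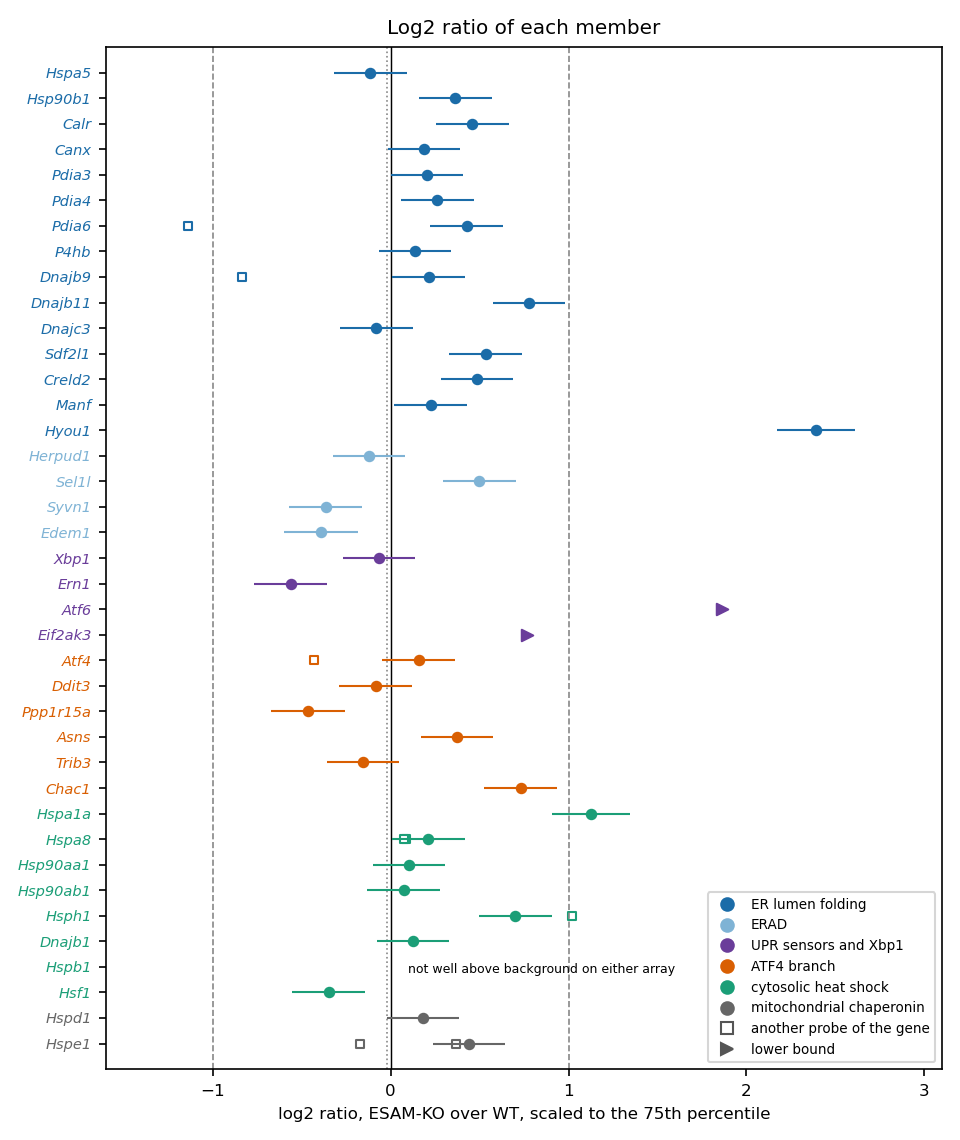
Log2 ratios (ESAM-KO over WT, 75th percentile scaling) for each member, coloured by group. Filled circles are the probe with the highest mean signal with the scanner's error as a bar, open squares other probes of the gene, arrowheads lower bounds, dashed lines 2-fold and the dotted line the median of all genes. Hyou1 at 2.39 and Hspa1a at 1.13 lie beyond 2-fold, as does the bound of Atf6. The filled circles of 13 of the 15 ER lumen genes lie to the right of 0.

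All 15 ER lumen genes passed the background filter in both groups, and 13 had a ratio above 0, against 6117 of all 12615 genes. Of the 13, Pdia6 and Dnajb9 turned below 0 when their probes were averaged (-0.36 and -0.31). The median of the 15 was 0.26, and 1 passed 2-fold. That gene was Hyou1, which encodes a large Hsp70-related protein that acts as a nucleotide exchange factor for BiP. Its intensity was 60.3 (WT) and 394.3 (ESAM-KO), for a scaled log2 ratio of 2.39 with a scanner error of 0.22, or 5.25-fold. Its ratio was higher than that of 99.7% of all genes on both arrays. Hyou1 rests on 1 probe with 1 spot, and the ratio was between 1.55 and 2.71 over 11 alternative settings, past 2-fold in each of the 11.

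The major chaperones of the ER did not share the size of that difference. Hspa5, which encodes BiP, had an intensity of 6903 (WT) and 7953 (ESAM-KO), for a scaled log2 ratio of -0.11. Hsp90b1, the ER form of Hsp90 (GRP94), was at 3167 and 5079, a log2 ratio of 0.36. The pair is a usual readout of the UPR, and in these arrays the difference of Hspa5 was within the scanner error while that of Hsp90b1 was above it and far below 2-fold. The lectin chaperones, which hold glycoproteins during folding, were measured at 3714 and 6367 for Calr and at 7167 and 10172 for Canx. Their log2 ratios were 0.46 and 0.19. Dnajb11, a J-domain cofactor of BiP, had the next highest ratio of the group after Hyou1, 0.78, from 1024 in WT to 2187 in ESAM-KO. A second Dnajb11 probe was not well above background. The other J-domain cofactors were lower in ratio, at -0.08 for Dnajc3 (680 and 802), which also inhibits eIF2 alpha kinases, and at 0.21 for Dnajb9 (188 and 271).

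The disulfide isomerases, which form and rearrange disulfide bonds, had log2 ratios between 0.14 and 0.43. P4hb was at 2052 in WT and 2813 in ESAM-KO (0.14), and Pdia3, which works with the lectin chaperones, at 3669 and 5273 (0.20). Pdia4 was at 323 and 482 (0.26), and Pdia6 at 520 and 872 (0.43). These differences were all below 2-fold, and that of P4hb was within the scanner error. The value of Pdia6 depended on the probe: its dimmer probe read 44.3 (WT) and 25.1 (ESAM-KO), for a log2 ratio of -1.14, and the mean of both probes was -0.36. Dnajb9 had the same kind of disagreement, with -0.84 at its other probe (243 and 169) and a mean of -0.31.

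Sdf2l1, Creld2 and Manf encode small ER proteins known as sensitive UPR target genes. Sdf2l1, a partner of the BiP and J-domain complexes, was at 5321 (WT) and 9605 (ESAM-KO), for a log2 ratio of 0.53. Creld2 was at 852 and 1486, a log2 ratio of 0.48. Manf, a secreted protein that binds BiP, was at 6245 and 9100, a log2 ratio of 0.22. Creld2 was the one member printed many times on the array, and its 10 spots gave log2 ratios from 0.39 to 0.58 with an SD of 0.065 over spots, which measures spotting and scanning within these 2 hybridisations and not the spread between mice. All 3 genes were above the median of all genes and below 2-fold.

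The ER lumen genes with an ERSE in their promoter were compared with those without. The 7 with the element had a median log2 ratio of 0.36, with 5 above 0, and ranged from -0.11 for Hspa5 to 0.48 for Creld2. The 6 with a promoter entry and no match had a median of 0.24, with 6 above 0, and included Dnajb11 at 0.78. The ranges of both sets overlapped over most of their length. Hyou1 and Manf had no promoter entry. Outside the members, 29 genes had the element, and the 10 well above background on both arrays had a median of 0.03. Genes with only a bound were left out, among them Xlr3a at 1.81. The shorter XBP1 and ATF6 motif TGACGTGG was in 0.714% of all genes with a promoter and in 0 of the 33 members.

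The ERAD genes showed no common direction. Sel1l, the adaptor of the HRD1 ligase complex, was at 293 (WT) and 516 (ESAM-KO), for a log2 ratio of 0.50. Syvn1, which encodes that ligase, was at 382 and 370 (-0.36). Edem1, a mannosidase-like protein that marks glycoproteins for degradation, was at 126 and 119 (-0.39), and Herpud1, a stress-induced membrane component of the complex, at 1465 and 1679 (-0.12). Syvn1 and its partner Sel1l therefore lay on opposite sides of 0. The median of the 4 was -0.24, and it was 0.08 without scaling between the arrays.

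Of the 3 sensors, Ern1 was measured on both arrays, at 441 in WT and 372 in ESAM-KO. Its log2 ratio of -0.56 was the lowest of all members and remained within 2-fold. Xbp1, the mRNA that IRE1 splices, was at 1131 and 1348, a log2 ratio of -0.07, and the probe values do not separate spliced from unspliced forms. The median of both was -0.31, and 0.0045 without scaling. The signals of the other sensors were low. Atf6 was at 8.76 in WT, not well above background, and at 57.1 in ESAM-KO, which made it at least 3.64-fold higher, a bound of 1.86 on the log2 scale. Eif2ak3 was at 9.75, not well above background, and at 26.7, at least 1.70-fold higher. These bounds set the ESAM-KO level against the lowest signal well above background in WT, which was 12.6 and above the WT signal of both probes. With normexp background correction the Atf6 value was 0.72, below 2-fold.

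In the ATF4 branch, 3 genes were above 0 and 3 below, with a median of 0.04 and 0 past 2-fold. Atf4 itself, whose control lies largely in translation, was at 25070 (WT) and 34862 (ESAM-KO), for a log2 ratio of 0.16. A second probe read 6690 and 6184, a log2 ratio of -0.43, so the direction of Atf4 was not settled. Ddit3, which encodes the pro-apoptotic factor CHOP, was at 1499 and 1763 (-0.08), and Trib3, a pseudokinase induced by CHOP and ATF4, at 1289 and 1444 (-0.15). Both differences were within the scanner error. Ppp1r15a (GADD34), which brings phosphatase 1 to eIF2 alpha and ends the translational block, was at 258 and 233, a log2 ratio of -0.46. Asns, the asparagine synthetase and a classic amino acid response gene, was at 3013 and 4865 (0.37). Chac1, which degrades glutathione and lies downstream of ATF4 and CHOP, was at 363 and 752, and its log2 ratio of 0.73 was the highest of the branch, though below 2-fold.

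The C/EBP-ATF response element, TGATGNAA, through which ATF4 acts, was in 4 of the 33 members with a promoter and in 4.51% of 27025 genes. The 4 were Asns, Chac1 and Trib3 of the ATF4 branch and Herpud1 of ERAD, and Ddit3, Ppp1r15a and Atf4 had no match in this window. Members were listed as genes of this branch, so a share above that of all genes was built into the list. The stretch of 200 bases before the start of Chac1 (chr2:119351042-119351241, plus strand) is shown because Chac1 had the highest ratio of the branch, with the fixed letters of the element, which reads on the opposite strand, in capitals.
Chac1: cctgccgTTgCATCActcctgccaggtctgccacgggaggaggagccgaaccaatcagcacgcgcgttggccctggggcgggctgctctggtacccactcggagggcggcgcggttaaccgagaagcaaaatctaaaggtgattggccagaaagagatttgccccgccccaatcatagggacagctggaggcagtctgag

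The log2 ratios of the 4 genes with the element were 0.37 for Asns, 0.73 for Chac1, -0.15 for Trib3 and -0.12 for Herpud1, on both sides of 0.

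Among the cytosolic heat shock genes, 6 of the 7 measured on both arrays lay above 0, with a median of 0.13, and 1 passed 2-fold. This was Hspa1a, the stress-inducible Hsp70, at 56.3 (WT) and 153.4 (ESAM-KO), for a log2 ratio of 1.13 with a scanner error of 0.22, or 2.18-fold. It was past 2-fold in 9 of 11 alternative settings, and below it with median scaling (just under it) and with normexp (0.66). Hspa1a and Hspa1b are near-identical copies, of which the promoter windows shared 296 of 300 bases (98.7%), and signal of both transcripts at the Hspa1a probe cannot be told apart here. Hspa8, the constitutive Hsp70, was at 21915 and 31645, a log2 ratio of 0.21, with 0.09 and 0.08 at its other probes. The inducible and the constitutive gene thus differed in the size of their ratios.

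Hsph1, the Hsp110 that serves as nucleotide exchange factor of cytosolic Hsp70, was at 7634 (WT) and 15482 (ESAM-KO), for a log2 ratio of 0.70. Its second probe read 1016 and 2568, a log2 ratio of 1.02, so both probes of Hsph1 were higher and only the dimmer one passed 2-fold. Hsph1 in the cytosol and Hyou1 in the ER belong to the same Hsp110 and Grp170 family of Hsp70 partners. The Hsp90 genes were near 0, with Hsp90aa1 at 8341 and 11175 (0.10) and Hsp90ab1 at 54737 and 71785 (0.07). Dnajb1, the main inducible Hsp40, was at 22106 and 30091 (0.13). Hsf1, the transcription factor of the group, was at 894 and 875, a log2 ratio of -0.35, the only value of the group below 0.

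The mitochondrial chaperonin is made of Hsp60 (Hspd1) and its lid Hsp10 (Hspe1), which share 1 promoter region between them. Hspd1 was at 6191 (WT) and 8763 (ESAM-KO), for a log2 ratio of 0.18. Hspe1 was at 34217 and 57911, a log2 ratio of 0.44, with 0.37 and -0.17 at its other probes. A row of 3 heat shock units (GAA, TTC and GAA with 2 free bases between neighbours) was searched on either strand. It was found in 0.662% of all genes with a promoter and in 3 members, namely this pair and Hsph1. Members were listed as chaperone and heat shock genes, so a share above that of all genes was built in here as well. In the shared promoter 2 such units overlap on opposite strands, and 100 bases before the start of Hspe1 (chr1:55088048-55088147, plus strand) are printed with their fixed letters in capitals because both genes can be read from them.
Hspe1: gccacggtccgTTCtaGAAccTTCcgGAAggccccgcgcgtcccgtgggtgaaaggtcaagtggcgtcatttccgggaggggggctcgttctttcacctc

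The 3 genes with this unit had log2 ratios of 0.18, 0.44 and 0.70, and Hspa1a, past 2-fold, had a promoter entry without a match to these letters.

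**Figure D3:**
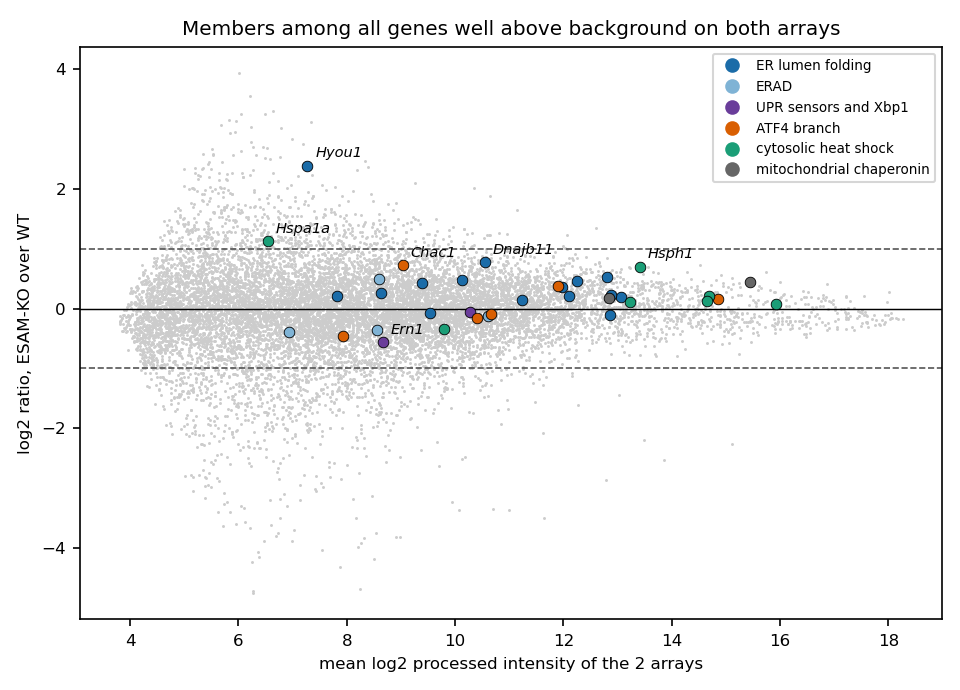
Log2 ratio (ESAM-KO over WT) against the mean log2 intensity of both arrays for 12615 named genes well above background on both (grey) and the 36 members (coloured by group), with 2-fold as dashed lines. The grey cloud is wider at low signal. Hyou1 and Hspa1a lie in its wider part, while the 23 members in the set with the highest signal lie within 2-fold, most of them slightly above 0.

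How far 1 probe can be trusted was read from genes with several probes. In 3056 genes with more than 1 probe the gap between the highest and the lowest ratio had a median of 0.47 and exceeded 1 in 23.7%. Where all probes were in the set with the highest signal (412 genes) the median gap was 0.21, and 1.21% exceeded 1. Of the 6 members with several probes on both arrays, Hspa8 had a gap of 0.13, Hsph1 of 0.32, Atf4 of 0.59, Hspe1 of 0.61, Dnajb9 of 1.05 and Pdia6 of 1.56. Hyou1, Atf6 and Hspa1a each had 1 probe, so that no second probe was at hand for any of the 3 genes past 2-fold.

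Further genes of the same pathways were taken from 8 lists with 189 genes, none of them members. A total of 178 had a ratio or a bound, of which 10 were more than 2-fold higher and 8 more than 2-fold lower together. This was a smaller share than the 15.4% of all genes, but that background depends on signal. Of all genes on both arrays, 2.63% passed 2-fold in the set with the highest signal and 19.1% in the next-to-lowest set. The lists were not matched to all genes by signal, so the smaller share cannot be read as fewer changes in these pathways. The median over 172 genes on both arrays was 0.18, with 109 above 0. The size of this median was close to the 0.20 of the members, and the median of 15 housekeeping genes was -0.00.

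ER folding and secretion held genes past 2-fold in both directions, 2 higher and 3 lower of 32, with a median of 0.07. Higher were Txndc12, a small thioredoxin-like ER protein (log2 ratio 1.88), and Cnpy2 (1.05). Lower were the disulfide isomerase Pdia5 (-2.75), Erp44, which retrieves client proteins from the Golgi (-2.24), and Sec63, the J-domain protein of the translocon (-1.13). Pdia5 was at 698 in WT and 129.7 in ESAM-KO, and Erp44 at 265 and 69.7. Pdia5 thus lay well below the 0.14 to 0.43 of P4hb, Pdia3, Pdia4 and Pdia6 at their probes of highest mean signal. Pdia5 rests on 1 probe, and the dimmer probe of Pdia6 was at -1.14. ER-associated degradation had 1 higher, Selenos (1.07), and 1 lower, Edem2 (-1.44), of 18, with a median of 0.12. Of the mannosidase-like EDEM proteins, Edem2 and the member Edem1 were below 0, and Edem3, named after its value was seen, was at 0.54.

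In UPR signalling, 1 of 13 was higher and 1 lower, with a median of 0.01. The higher gene was Creb3l2, an ER-anchored transcription factor related to ATF6, at 30.9 in WT and 250.2 in ESAM-KO (2.70). The lower gene was Ppp1r15b, the constitutive partner of Ppp1r15a in eIF2 alpha dephosphorylation, at 1306 and 651 (-1.32). Both phosphatase subunits were thus below 0, and only Ppp1r15b was past 2-fold. Among eIF2 kinases and factors, 2 of 12 were higher, Impact (2.57) and the amino acid-sensing kinase GCN2, Eif2ak4 (1.53), with a median of 0.21. Impact inhibits GCN2, and both had low signals, from 27.5 in WT to 98.8 in ESAM-KO for Eif2ak4 and up to 162 in ESAM-KO for Impact. The heme-regulated kinase Eif2ak1 was at 3497 and 3468, a log2 ratio of -0.33.

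Of 38 further ATF4 target genes, 3 were higher and 1 lower, with a median of 0.16. The serine synthesis enzyme Psat1 was at 2655 in WT and 6657 in ESAM-KO (1.01), Vegfa at 790 and 2007 (1.03), and the bound of Cth, of the transsulfuration route, was 1.06. The lower gene, Vldlr, was not well above background in ESAM-KO, with a bound of -2.20. Atf3, an early target of the branch, was at 0.14. Cytosolic heat shock proteins and co-chaperones had 1 higher and 2 lower of 37 and a median of 0.23, with 25 above 0. Bag5 was at 1.21, Dnaja4 at -2.06 and Hsbp1, a binder of HSF1, was just past 2-fold, at 1153 and 717. Hspa4, an Hsp110 like Hsph1, was at 0.70.

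The chaperonin lists held 0 genes past 2-fold. In the cytosolic TRiC chaperonin with its prefoldin partners, 11 of 14 genes were above 0 with a median of 0.24. The mitochondrial chaperones and proteases had 10 of 14 above 0 and the highest median of the 8 lists, 0.42. Hspa9, the mitochondrial Hsp70, was at 3035 in WT and 6415 in ESAM-KO (0.76), and its exchange factor Grpel1 at 1433 and 3462 (0.95). Both were above Hspd1 and Hspe1 in ratio, while Trap1 (-0.52) and Grpel2 (-0.27) were among the 4 genes of the list below 0. Hspa4, Hspa9, Grpel1, Trap1, Grpel2, Eif2ak1 and Atf3 were named after their values were seen.

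**Figure D4:**
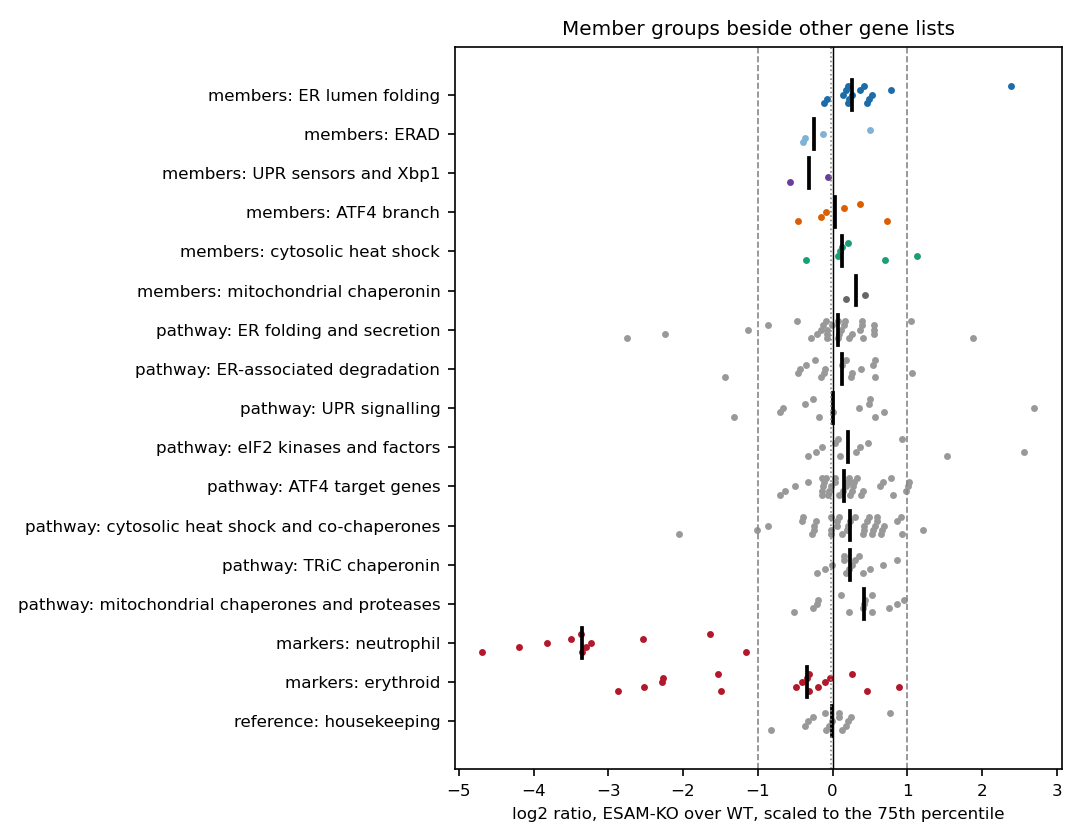
Log2 ratios (ESAM-KO over WT, 75th percentile scaling) of genes on both arrays, 1 point per gene, for the 6 member groups (coloured), the 8 pathway lists and housekeeping genes (grey), and neutrophil and erythroid markers (red). Black bars are medians, dashed lines 2-fold and the dotted line the median of all genes. The member and pathway medians lie between -0.31 and 0.42, and all 11 neutrophil markers lie below -1.

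The arrays also differed in markers of other cells, and the values are given because the sorted cells were measured in bulk, in which fewer cells of a type and less RNA per cell cannot be told apart. Neutrophil granule and effector genes, 11 of 11 well above background on both arrays and none at 0, were all more than 2-fold lower in ESAM-KO, with a median log2 ratio of -3.35 and a summed intensity of 59981 in WT and 10099 in ESAM-KO. Erythroid genes were lower past 2-fold in 7 of 19 and higher in 0, with a median of -0.34 and sums of 155918 and 89420. Of the 19 erythroid genes, 17 passed the background filter in both groups. Plasma and B cell markers, which could accompany a high ER chaperone level, had 1 higher and 3 lower of 10, with sums of 1365 and 1821, and of 619.7 and 326 without Prdm1. Higher past 2-fold was Sdc1 (16.1 in WT, 54.3 in ESAM-KO), and lower were Vpreb1 (-2.45), Cd79b (-2.09) and, as a bound, Igll1 (-2.58). Jchain was at 17.96 and 2.78 and Mzb1 at 17.9 and 28.4, where the lowest detected signals were 12.6 and 13.2. Macrophage markers had 1 higher and 1 lower of 5, mast cell and basophil markers 1 and 1 of 5, megakaryocyte markers 2 and 3 of 12. Genes of the immediate early response to cell isolation had 3 higher and 1 lower of 19. The part of these differences in the ratios of the chaperone and UPR genes was not tested.

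Esam, the deleted gene, was at 27.4 (WT) and 20.6 (ESAM-KO), for a log2 ratio of -0.73 with a scanner error of 0.31, which is below 2-fold and close to the detection limit on both arrays. The position of its probe in relation to the deleted part is not given in the sources used here, so the value does not check the labels. Between the arrays, 57.3% of spots in WT and 61.1% in ESAM-KO were well above background, no spot was saturated, and 0 member spots were outliers.

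The direction of small ratios depended on the scaling. Without it, all but 5 of the 36 members on both arrays lay above 0, the median of the members was 0.51, and the median of all genes shifted by 0.32. With each array scaled to its median, the median of the members was 0.07 and that of all genes shifted by -0.13. The distance between both medians was 0.22 as reported and 0.15 to 0.25 over the 11 alternatives. Settings that scale each array by a single factor move both medians alike and leave this distance unchanged by construction. The filter on dim probes leaves it unchanged as well, so its stability under those settings is no check. Hspa5, Xbp1, Herpud1, Ddit3, Trib3 and Dnajc3 turned from below to above 0 without scaling, while Ern1, Ppp1r15a, Syvn1, Edem1 and Hsf1 remained below it. Hsp90aa1, Hsp90ab1 and Dnajb1 turned just below 0 with each array scaled to its median, and Pdia6, Dnajb9 and Atf4 turned below 0 when the probes of a gene were averaged.

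**Figure D5:**
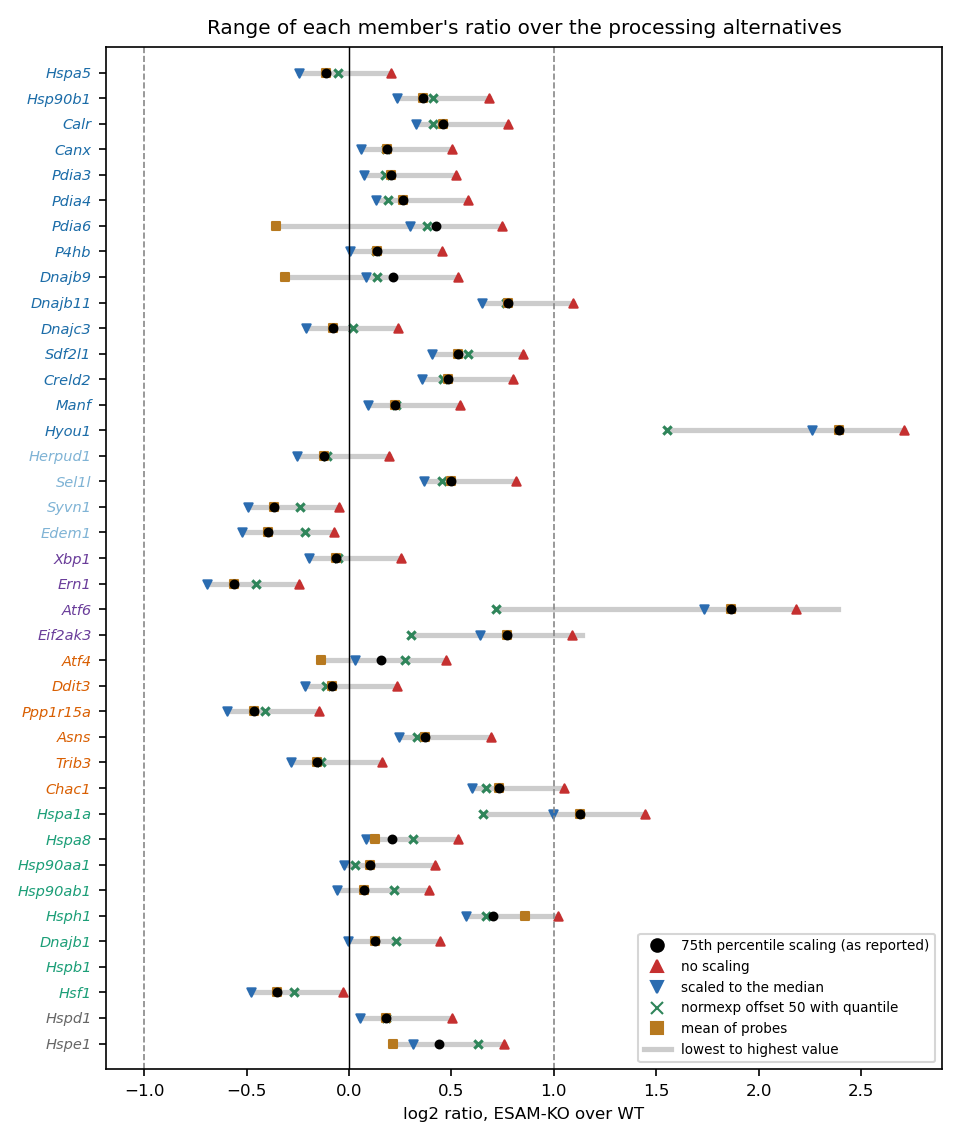
Range of each member's log2 ratio (ESAM-KO over WT) over the processing alternatives (grey bars), with the value as reported (black) and those of 4 alternatives (symbols); dashed lines mark 2-fold. Hyou1 stays beyond 2-fold throughout, Atf6 and Hspa1a cross below it with normexp, and leaving out the scaling moves members to the right.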

How the data were processed

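Total RNA of sorted cells was amplified (Ovation Pico WTA System V2) and hybridised to SurePrint G3 mouse 8x60K arrays, 1 per genotype. The authors deposited per array, the scanner tables made with Agilent Feature Extraction (version 10.10.1.1), with the processed intensity of every spot, background-subtracted and detrended within the array, and a series table of the same values. Per the methods, genes were compared by a 2-fold criterion. The scaling used by the authors is not given in the sources used here.

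From the 59305 non-control spots, 254 flagged as outliers on either array were left out. Spots of a probe were averaged on the log2 scale, minus the 75th percentile of the array. A probe was detected where over 50% of its spots were well above background. With 1 array detected, the ratio is a bound, for which the other array takes its lowest detected signal or, if greater, what the dim probe itself read. Of 55681 probes, 27235 (48.9%) were named through RefSeq accessions (GRCm38.p6), and the probe of highest mean signal stood for its gene. Named genes were all members and, of the pathway lists, those past 2-fold and a few others marked as named after their values were seen. Members and lists were chosen with earlier results of these data known. Normexp (limma 3.58.1, R 4.3.3, offset 50) used median spot signals. The ratio calculation was tested on simulated data (Python 3.11.15) with noise set below the scanner error. This checks the code and not the precision of the ratios in these data. The number of arrays limits the precision. Protein sequences were not used here.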

Additional observations from a re-analysis of the deposited data

How the results depend on the processing

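No paired analysis was possible because only 1 array per genotype exists here. The members past 2-fold, 3 as reported and all higher, were 7 without scaling, 1 with normexp and 7 at a 1.5-fold threshold, and 0 members were lower in any setting. The median of the members was 0.51 without scaling. All genes past 2-fold, 2179 as reported, were 722 with normexp, 4108 with no filter on dim probes, 4694 at 1.5-fold and 821 at 3-fold. Of these, 1804 were higher and 729 lower without scaling, 236 and 486 with normexp, 1800 and 2308 with no filter, 2209 and 2485 at 1.5-fold, and 317 and 504 at 3-fold. Thresholds and the filter change the number by construction. So does leaving out the scaling, which shifts every log2 ratio by 0.32. For normexp the cause was not tested. Of 416 member ratios under the alternatives, 372 moved by less than the scanner error, 44 moved further, and 13 changed sign, all of members within 2-fold. For members on both arrays these counts were largely set by construction. Leaving out the scaling shifts each of their ratios by more than that error, and median scaling, at -0.13, by less. The filter settings do not change their ratios. With 1 array per genotype no replicate could be left out, and signals near background (Atf6, Eif2ak3, Hspb1) give a bound or no ratio.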
